A study of Mus musculus with 6 samples.

Results

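The oligodendrocyte lineage and myelin genes are 9 genes of 34797 gene names on the array, read by 11 of its 55681 probes. They were taken as the probes, controls left out, whose gene name is Olig1, Olig2, Sox10, Pdgfra or Cspg4 (the precursor genes) or Mbp, Mag, Mog or Cnp (the myelin genes). All 9 genes were measured in the cerebellum of newborn mice, and all 9 were well above background on 5 of the 6 arrays. None of them passed the limma test for a difference between the 2 maternal folic acid (FA) doses, and of all 37211 probes tested 0 did. The SD between the 20 mg pools (n = 2) exceeded the difference for 6 of the 9 in males and 5 of the 9 in females. The corresponding share over all probes was not computed. In female pups the mean of Cnp and of Olig1 was past 2.5-fold lower at 20 mg, but in both genes this came from a single dim array on which neither was well above background. The mean of the myelin genes minus that of the precursor genes differed between the doses by 0.11 in males and 0.02 in females (log2). Over the 4 genes well above background on every array it differed by -0.04 and 0.62. The dim array alone decided which genes these were.

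Dams of the C57BL/6J strain received an amino acid-based AIN-93G diet that held FA at 2 mg/kg diet or 20 mg/kg diet, from 1 week before mating through gestation, and pups were taken on postnatal day 1. RNA was pooled from 3 pups of one sex, each from a different dam, and each pool was hybridized to 1 single-colour array, which reports the brightness of cyanine-3-labelled RNA on each probe. Each sex had 1 array at 2 mg and 2 at 20 mg, whose pools came from 2 batches of RNA extraction, so that only the 20 mg groups show how far pools differ. The titles and the methods name the cerebellum, whereas a tissue field of the labels names the whole brain. All 7 listed genes of the granule cell lineage, the main neurons of the cerebellum, and all 7 of Purkinje cells were well above background on 5 arrays, with 4 of each on the array described below as dim. All 7 listed forebrain genes were also well above background on both 2 mg arrays.

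Oligodendrocytes wrap axons in myelin. Their precursors carry the receptor for platelet-derived growth factor and the NG2 proteoglycan, divide and migrate through the newborn brain, and later switch on the proteins that build the sheath. In the mouse cerebellum most myelin forms after birth, so that on the day after birth precursors are present while sheaths are scarce. Because tissue was measured as a whole, fewer cells of a type and less RNA per cell cannot be told apart in these values.

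The arrays were not of equal brightness. Between 51.1% and 71.9% of all probes were well above background on 5 arrays, against 23.3% on the array labelled female 20 mg replicate 2, whose median processed signal was 5.14 where the others had 39 to 162. This array is called the dim array below, and counts past 2.5-fold that rest on it are given with and without it. Both 2 mg arrays and female 20 mg replicate 1 shared slide 1, the dim array and male 20 mg replicate 1 shared slide 2, which was scanned on an earlier day, and male 20 mg replicate 2 was alone on slide 3. The dose and the slide therefore overlap in males, where no 20 mg array shares a slide with the 2 mg array, and their parts cannot be told apart there. Levels below are log2 intensities after quantile normalization over the 6 arrays with a floor of 10 on the linear scale. The level of one probe cannot be set against that of another, since probes differ in how brightly they bind, so all comparisons are within a probe.

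Transcripts are cut and given their poly(A) tail just past a short signal. Among the 11 probes of the 9 genes, 3 hold the letters AATAAA or ATTAAA, the usual letters of that signal, searched on the strand of the probe alone, and 13.7% of all probes on the array do. Stretches of 30 bases of these probes are shown because they are the letters through which Olig1, Sox10 and Mag were read, with the match in capitals. A match is a description and was not tested as a site in use.
Olig1: attaacgttctcATTAAAgtaagcggagtt
Sox10: tccagcgataccttAATAAAgtacgtagct
Mag: aaagggacatgaAATAAAtgtcctaatgac
In mouse genome build mm9 the probe of Olig1 lies at chr16:91271799-91271858, that of Sox10 at chr15:78985518-78985577 and that of Mag at chr7:31684202-31684261, the last 2 on the minus strand, as the array design gives them. The probes of all 9 genes have 60 bases, with a GC content from 36.7% to 55%.

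The first precursor genes encode transcription factors. Olig1, a basic helix-loop-helix factor of the lineage, had a log2 level of 12.01 on the female 2 mg array, 11.07 on female 20 mg replicate 1 and 8.46 on the dim array. In males it had 11.69 at 2 mg and 12.08 and 11.54 on the 20 mg arrays. The dim array stood alone: without it the 5 levels of Olig1 lay between 11.07 and 12.08. On that array the processed signal was 14.8 and not well above background, against 1600 to 9150 elsewhere. In females the 20 mg mean of Olig1 was 9.76 ± 1.85 (SD, n = 2), a difference from 2 mg of -2.25, made up of -0.94 on replicate 1 and -3.56 on the dim array. In males the mean was 11.81 ± 0.38 (SD, n = 2), and the difference of 0.12 was smaller than that SD.

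Olig2, the related factor that specifies the lineage, is a neighbour of Olig1 on chromosome 16, with its probe at chr16:91228470-91228529. Its levels were 9.25 at 2 mg and 9.35 and 7.98 at 20 mg in females, and 9.19 at 2 mg and 9.14 and 8.61 at 20 mg in males. Apart from the dim array, where it was not well above background, Olig2 covered 0.74 on the log2 scale, from 8.61 to 9.35, and the female 2 mg level lay inside the range of the other arrays.

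Sox10 encodes the factor that turns on myelin genes in oligodendrocytes, and in Schwann cells outside the brain. It was well above background on all 6 arrays, with 9.81 at 2 mg and 9.54 and 10.56 at 20 mg in females, and 9.32 at 2 mg and 10.02 and 10.82 at 20 mg in males. Both male 20 mg arrays were above the male 2 mg array, by 0.70 and 1.5, while the female 20 mg arrays lay on either side of theirs. The male mean difference of 1.10, on an SD of 0.56 (n = 2), was 2.15-fold, short of 2.5-fold. In the authors' deposited table this difference was 1.70 and past 2.5-fold.

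**Figure D1:**
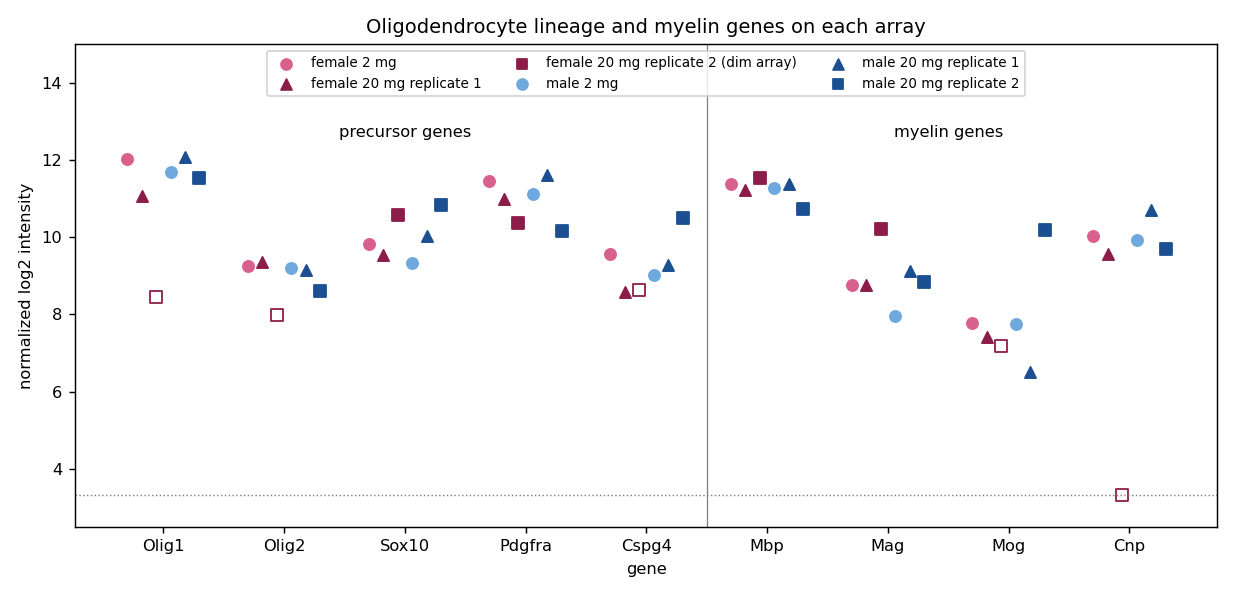
Normalized log2 intensity (y axis) of each of the 9 genes (x axis) on the 6 arrays, with circles for 2 mg, triangles for 20 mg replicate 1, squares for 20 mg replicate 2, pink and purple for females and blue for males; open symbols were not well above background and the dotted line is the floor. Olig1 at 8.46 and Cnp at the floor on the dim array are far below the other 5 arrays of each gene, and levels of different genes are not comparable.

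The remaining precursor genes encode surface proteins. Pdgfra is the receptor for the growth factor that keeps precursors dividing, and it is also found on meningeal fibroblasts. Its levels were 11.45 at 2 mg and 10.98 and 10.36 at 20 mg in females, and 11.12 at 2 mg and 11.61 and 10.15 at 20 mg in males. Both female 20 mg arrays were below their 2 mg array, with differences of -0.48 and -1.10, and the male ones lay on either side.

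Pdgfra also shows how much of this spread arises between spots of one array, because its probe is printed on 10 spots. On the female 2 mg array the processed signal of the 10 spots ran from 5760 to 6580, with an SD of 0.07 on the log2 scale. The SD was at most 0.10 on each of the 5 bright arrays and 0.32 on the dim array, where the 9 spots not flagged as outliers ran from 34.2 to 72.8. The SD of Pdgfra between the pools at 20 mg was 1.03 in males and 0.44 in females (n = 2 each), larger than the spread over spots of any array. These repeated spots share 1 hybridization and count as 1 measurement. The 20 mg pools of each sex differed in slide and RNA extraction batch too, and in females 1 was on the dim array. Their SD holds all of these, and the parts cannot be told apart.

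**Figure D2:**
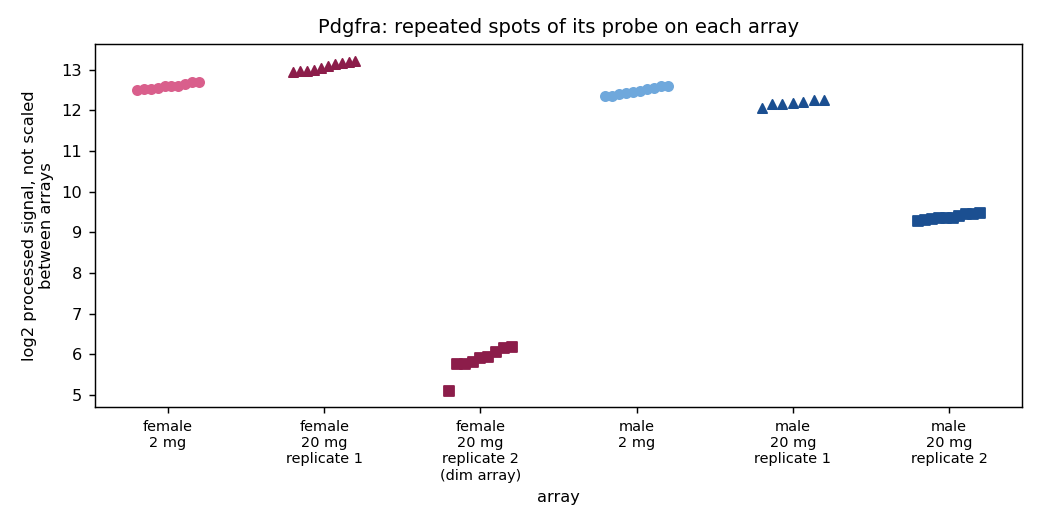
Log2 processed signal of each unflagged spot of the Pdgfra probe (y axis) on each array (x axis), before any scaling between arrays; each point is a spot, ordered by size. Spots of one array lie close together, with an SD of 0.07 to 0.32, while the dim array is far below the others.

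Cspg4 encodes NG2, carried by precursors and also by pericytes. Its levels were 9.56 at 2 mg and 8.57 and 8.62 at 20 mg in females, and 9.03 at 2 mg and 9.29 and 10.50 at 20 mg in males. The differences from 2 mg were -0.98 and -0.93 in females and 0.26 and 1.46 in males. It was the only one of the 9 genes in which both 20 mg arrays of one sex lay below their 2 mg array and both of the other sex above, an arrangement with males above in 4.18% and with females above in 4.83% of all probes tested. On the dim array Cspg4 was not well above background, so its small SD of 0.03 in females includes a level that is background.

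Among the myelin genes, Mbp encodes myelin basic protein, which compacts the sheath. Its brightest probe, at chr18:82727929-82727988, had 11.38 at 2 mg and 11.21 and 11.52 at 20 mg in females, and 11.27 at 2 mg and 11.37 and 10.72 at 20 mg in males. This was the narrowest spread of the 9 genes: all 6 arrays, the dim array included, lay within 0.80 on the log2 scale. The mean difference between the doses was -0.02 in females and -0.23 in males, with SDs of 0.22 and 0.45 (n = 2 each).

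Mbp is the one gene of the 9 with several probes. A probe 36.46 kb upstream had levels from 4.27 to 6.02 and was not well above background on the female 2 mg array and the dim array, and a probe 14.34 kb downstream had levels from 4.75 to 7.85, with the highest on the dim array, where it was not well above background. The upstream probe was above its 2 mg array on all 4 arrays at 20 mg, by 0.96 and 0.75 in females and by 0.90 and 0.32 in males. Of all probes tested, 5.13% were higher on all 4. The female differences of the upstream probe are from a 2 mg level that was not well above background. The upstream and downstream probes both gave higher means at 20 mg in each sex, by 0.61 to 1.12, in contrast to the brightest probe. The array design lists the brightest probe under a different transcript of Mbp than these probes. The exons that the probes read were not determined. In the counts and means over the 9 genes the brightest probe alone stands for Mbp. All 3 probes passed the filter for the test, and their SEs in females were 1.08 for the brightest probe, 1.70 for the upstream probe and 2.09 for the downstream probe, so that none of these differences exceeded its error.

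**Figure D3:**
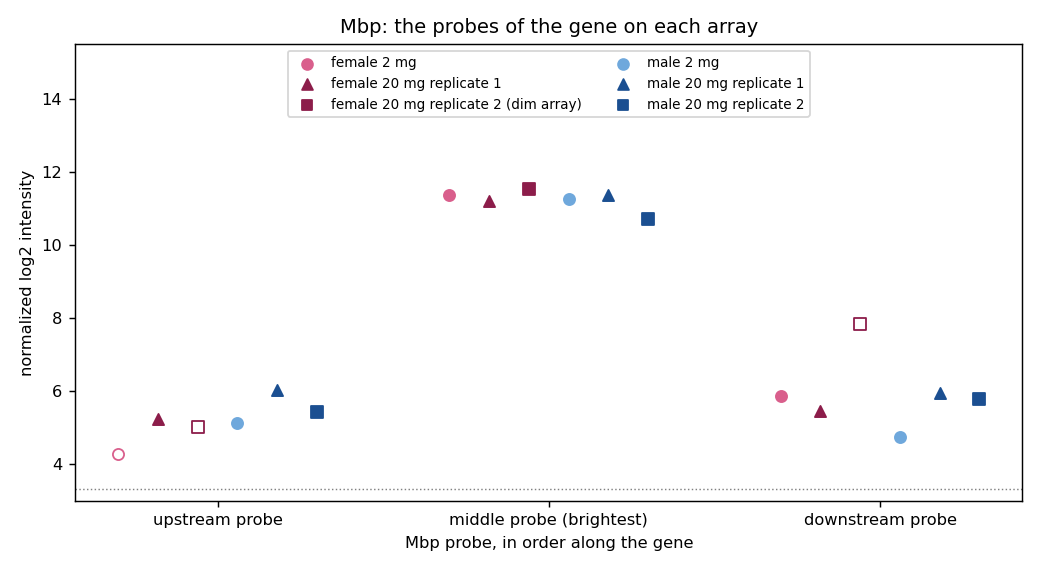
Normalized log2 intensity (y axis) of the probes of Mbp in order along the gene (x axis) on the 6 arrays, with symbols as for the 9 genes. The middle probe lies between 10.72 and 11.52 on all arrays, while the others lie between 4.27 and 7.85 with some open symbols, and probes are not comparable in level.

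Mag, an adhesion protein of the sheath facing the axon, was well above background on all 6 arrays. Its levels were 8.77 at 2 mg and 8.77 and 10.20 at 20 mg in females, and 7.97 at 2 mg and 9.13 and 8.83 at 20 mg in males. Both male 20 mg arrays were above the male 2 mg array, by 1.16 and 0.86, a mean of 1.01 on an SD of 0.21 (n = 2). In females replicate 1 lay at the level of the 2 mg array, and the dim array was above it by 1.42.

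Mog, a late marker on the outer face of the sheath, was the most variable of the 9 genes outside the dim array. Its levels were 7.78 at 2 mg and 7.41 and 7.17 at 20 mg in females, and 7.74 at 2 mg and 6.52 and 10.19 at 20 mg in males. The male 20 mg arrays differed from each other by more than from the 2 mg array, with differences from it of -1.22 and 2.45. In females the difference of -0.49 was -1.75 in the authors' deposited table and -1.94 with the floor set before normalization, both past 2.5-fold, and -0.37 without the dim array, where Mog was not well above background.

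Cnp, an enzyme of the non-compact layers of myelin that precursors also carry, had 10.04 at 2 mg and 9.56 and 3.32 at 20 mg in females, and 9.93 at 2 mg and 10.69 and 9.69 at 20 mg in males. On the dim array its processed signal was 3.92, under the floor of 10, against 503 to 3190 on the other arrays. The female mean difference of Cnp was -3.60 with an SD of 4.41 (n = 2) between the pools. On replicate 1 alone the difference was -0.49, and the 5 bright arrays lay within 1.13.

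By the study's rule on the size of change, a transcript counted when the 20 mg mean was at least 2.5-fold from the 2 mg array. In males 0 of the 9 genes passed, where 6.4% of all 37211 probes tested did, 4.19% lower and 2.21% higher. In females 2 of the 9 genes passed, Olig1 and Cnp, both lower, where 17.3% of all probes passed as lower, 7.12% as higher and 24.4% in either direction. Without the dim array 0 of the 9 genes passed in females. Taken alone, female 20 mg replicate 1, which shares a slide with the 2 mg arrays, had 0 genes past 2.5-fold, beside 5.01% of all probes; 7 of the 9 lay below the 2 mg array, where 47.7% of all probes did. The dim array had 3 (Olig1, Cnp and Mag), beside 52.8%. Male replicate 1 had 0, beside 19.3%, and male replicate 2 had 3 (Sox10, Cspg4 and Mog, all higher), beside 18.3%. The median difference of the 9 genes was 0.26 in males and -0.59 in females, against -0.04 and -0.21 over all probes tested. On the female 20 mg arrays taken alone it was -0.37 on replicate 1 and -0.93 on the dim array.

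**Figure D4:**
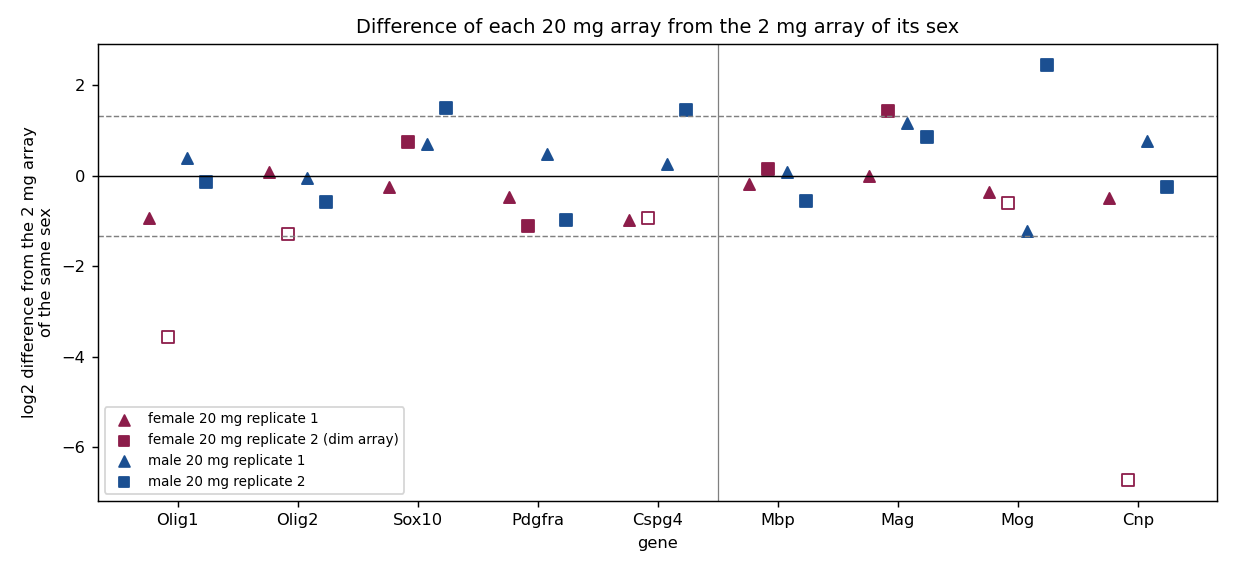
Log2 difference of each 20 mg array from the 2 mg array of its sex (y axis) for the 9 genes (x axis); dashed lines mark 2.5-fold, and open symbols were not well above background on the 20 mg array. Points past 2.5-fold occur on the dim array and on male 20 mg replicate 2, and none on female 20 mg replicate 1 or male 20 mg replicate 1.

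As the test against replicate error, limma was fitted over the 37211 probes that were above background on 2 arrays or more. Of all these probes 0 passed in any contrast given next, so the lack of calls was not particular to the 9 genes. No gene of the 9 passed a Benjamini-Hochberg adjusted p of 0.05 from limma for the dose in males, in females, over both sexes or for the difference between the sexes, and the adjusted p was 1 in each case. The smallest unadjusted p from limma among the 9 genes was 0.0738, for Olig1 in females. Over both sexes the standard errors from limma ran from 0.76 to 1.44 on the log2 scale, larger than a 2.5-fold change for some of the genes. A standard error is not a limit of detection: differences smaller than it were not detectable with these arrays, and larger ones also went uncalled. In females Cnp had a difference of -3.60 with a standard error of 1.95. None of the 9 genes had its 20 mg arrays all above or all below both 2 mg arrays, where 3.75% of all probes had them above and 4.59% below, and none, by its brightest probe, differed in one direction on all 4 arrays at 20 mg.

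The question of precursor against myelin genes was put to each array as the mean log2 level of the 4 myelin genes minus that of the 5 precursor genes. Its size depends on the probes. A change between arrays shows that the means moved unequally, which a single gene can bring about. On male 20 mg replicate 2 Mog differed from 2 mg by 2.45. On the dim array Cnp differed by -6.72 and Olig1 by -3.56, and neither was well above background there. The myelin minus precursor mean was -0.92 on the female 2 mg array, -0.67 on female 20 mg replicate 1 and -1.14 on the dim array. In males it was -0.84 at 2 mg and -1.0 and -0.46 at 20 mg. The 20 mg arrays lay on either side of the 2 mg array in each sex. The mean difference between the doses was 0.11 in males and 0.02 in females, against SDs between pools of 0.38 and 0.34 (n = 2 each). Over the 4 genes well above background on all 6 arrays (Sox10, Pdgfra, Mbp and Mag), the difference was -0.04 in males and 0.62 in females. In females it was 0.28 on replicate 1 and 0.95 on the dim array. All 9 genes were well above background on the other arrays, so the dim array alone decided which genes were kept. The filter left out Cnp and Olig1, which were low there, so the values of 0.95 and 0.62 partly follow from it.

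Between the 2 mg arrays, which share slide 1, all 9 genes were lower in males than in females by their brightest probes, where 49.8% of all probes were. The differences ran from -0.04 for Mog to -0.80 for Mag, none of them 2.5-fold, as 1.47% of all probes were, and with 1 array per sex they have no replicate check. The upstream probe of Mbp went the other way, by 0.84. Of the 15 other genes of myelinating oligodendrocytes that entered the test, 14 were also lower on the male 2 mg array, with a median of -0.36, among them Mobp, a myelin protein, with a difference of -2.18, singled out after its values were seen. Of the 12 other precursor genes 6 were lower, with a median of -0.03. The forebrain genes differed between the same arrays, with 5 of 7 lower in males and a median of -1.75. They ran from -2.80 for Dlx2 to 1.02 for Emx2, both named after their values were seen. The mean level over the 7 forebrain genes was 9.23, 10.20 and 7.18 on the female arrays and 8.02, 9.21 and 7.51 on the male arrays, in the order 2 mg, 20 mg replicate 1 and replicate 2. Its part in the differences of the oligodendrocyte genes was not tested.

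**Figure D5:**
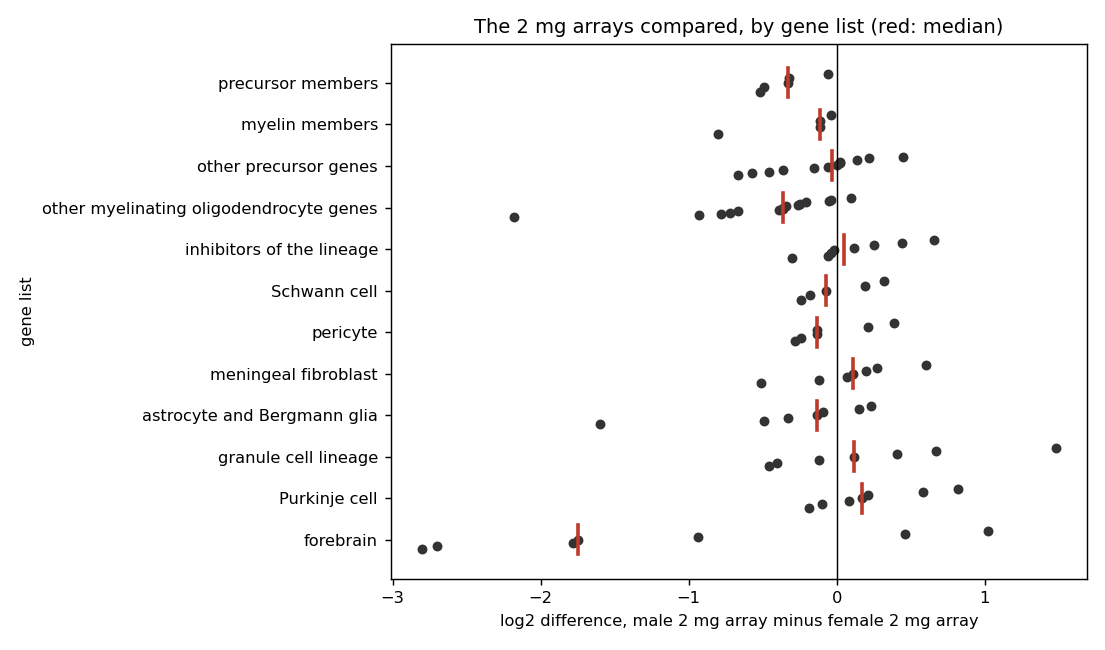
Log2 difference of the male 2 mg array from the female 2 mg array (x axis) for each gene tested, by gene list (y axis); points are genes and red bars are medians. All 9 precursor and myelin genes lie below 0, and the forebrain genes reach the most negative values, with a median of -1.75.

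Other genes of the pathway were read from lists. Of 18 genes of myelinating oligodendrocytes, 15 could be tested. Myrf, the factor that drives myelin gene expression (Gm98 in the files), and Opalin, a late protein of the sheath, were not well above background on any of the 6 arrays, and Enpp6, of newly formed oligodendrocytes, was so on 1. In males 0 of the 15 genes were past 2.5-fold at 20 mg, and in females 3 were lower, of which 0 were so on the bright 20 mg array. Among all probes tested, 6.4% were past 2.5-fold in males and 17.3% were past it as lower in females. Nkx6-2, a homeobox factor of the lineage, was lower on all 4 arrays at 20 mg, with differences of -0.03 and -0.40 in females and -0.98 and -1.20 in males. The -0.40 was on the dim array, where Nkx6-2 was not well above background.

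All 12 other precursor genes could be tested, and of these 0 were past 2.5-fold in males and 4 were lower in females. Of the 4, 1, Sox8, was so on the bright 20 mg array. The shares of all probes tested were 6.4% in males, 17.3% lower in females and 5.01% in either direction on the bright female 20 mg array. Lhfpl3 was lower on all 4 arrays at 20 mg, with differences of -0.59 and -4.25 in females and -0.18 and -0.67 in males. The -4.25 was on the dim array, where Lhfpl3 was not well above background. Ptprz1, a receptor phosphatase of precursors, was also lower on all 4, with -0.43 and -0.81 in females and -0.03 and -0.52 in males. Pdgfa, the ligand of Pdgfra, was higher on all 4, by 0.17 and 0.91 in females and by 0.06 and 0.49 in males. Over all probes tested, 6.69% were lower on all 4 arrays and 5.13% were higher. Sox8, a relative of Sox10 singled out after its values were seen, had 8.76 at 2 mg and 5.62 and 6.25 at 20 mg in females. It was thus past 2.5-fold on the bright array too, while on the dim array it was not well above background. In males Sox8 had 8.19, 8.24 and 7.21.

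Of 8 genes that hold the lineage back, Lingo1, an inhibitor of myelination, was past 2.5-fold lower in both sexes. Its levels were 10.25 at 2 mg and 10.26 and 3.32 at 20 mg in females, and 10.21 at 2 mg and 4.66 and 9.15 at 20 mg in males. The low levels of Lingo1 were on the 2 arrays of slide 2, where it was not well above background, and the other 4 arrays lay between 9.15 and 10.26. Over all probes tested, 4.19% were past 2.5-fold lower in males and 17.3% in females. The share lower in both sexes was not computed. No gene of these lists passed an adjusted p of 0.05 from limma, and the smallest unadjusted p was 0.0616, for Lingo1 over both sexes.

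Cells that share markers with the 9 genes were read beside them. Of 7 pericyte genes, which share Cspg4, 2 were past 2.5-fold lower in females and 0 in males, and Des was not well above background on any array. Of 7 meningeal fibroblast genes, which share Pdgfra, 1 was past 2.5-fold lower in females and 0 in males. Of 5 Schwann cell genes, which share Sox10, 0 were past 2.5-fold in either sex. Of 7 astrocyte and Bergmann glia genes 1 was past 2.5-fold lower in females, and 1 other gene was past 2.5-fold higher in males. On the bright female 20 mg array 0 genes of the pericyte, meningeal fibroblast and astrocyte lists were past 2.5-fold, so that these female counts rest on the dim array. Over all probes tested, 17.3% were past 2.5-fold lower in females, and 6.4% were past it in either direction in males. The mean level of the pericyte list was 8.05, 7.83 and 7.31 in females and 8.03, 8.34 and 7.60 in males, in the order above, and that of the meningeal fibroblast list was 10.83, 10.34 and 10.56 in females and 10.92, 11.30 and 10.46 in males. Their part in the levels of Cspg4, Pdgfra and Sox10 was not tested.

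The genes whose levels over the 6 arrays were most like the mean of the 5 precursor genes, among 12404 probes well above background on all arrays, included Sec31a, Darc, Pcbp2 and Cplx1, with Pearson's r from 0.987 to 0.992. For the mean of the 4 myelin genes they included Qk and the ribosomal RNA Rna28s1, with r of 0.991 each. Both means were lowest on the dim array, at -0.86 and -1.16 from their centres, and each r is a description over 6 points that share that array.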

How the data were processed

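Per the file headers, the deposited intensity values are the output of Agilent Feature Extraction 10.7.3.1, which subtracts background, corrects trends over the slide and puts a substitute on spots near background, without scaling between arrays. The log2 values of the authors' deposited table were quantile normalized with a floor in BRB-ArrayTools; they served as an alternative. 0 columns of other samples were used.

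From the processed signal, outlier spots were dropped and the rest averaged per probe; log2 values were then quantile normalized together, with a minimum of 10 on the linear scale set afterwards. A probe was well above background where 50 percent or more of its spots were. For Mbp, with several probes, the brightest gave the gene's value. limma 3.58.1 (R 4.3.3, empirical Bayes with trend, 4 groups of sex and dose, 2 residual degrees of freedom) was fitted to probes above background on 2 arrays or more, and a single 2 mg array was taken to have the spread of the 20 mg pairs. The fit was also run on simulated data with equal noise on all arrays and no dim array. That run does not show how the fit performs on these data. The study's further filter on variation was an alternative.

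The genes, lists and tests were chosen with earlier results of these data known. The rule for named genes outside the 9 took those past 2.5-fold in both sexes or differing in one direction on all 4 arrays at 20 mg, markers beside a result, and the 5 genes most like each mean; Sox8, Mobp, Dlx2 and Emx2 were named after their values were seen. Some of the genes this rule names are not reported here. Alternatives were another scaling, floor, background correction, source of values, probe rule, filter, design or slide term, and leaving out each 20 mg array. Intervals from counts do not apply to arrays, whose number limits the precision. The limma p-values rest on the spread between the 20 mg pools, drawn towards a spread estimated over all probes. Cspg4 in females, for example, had an SD of 0.03 between pools and a limma SE of 1.45. The 20 mg pools of each sex also lay on different slides, and in females 1 of them was on the dim array.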

Additional observations from a re-analysis of the deposited data

Results flagged for a closer look

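Cspg4 stood out because its dose difference ran in opposite directions in the sexes on every array. Its female difference minus its male difference was -1.82 on the log2 scale, with -0.98 and -0.93 on the female 20 mg arrays and 0.26 and 1.46 on the male ones. The difference itself was tested as the interaction of dose and sex, with an unadjusted p of 0.384 and an adjusted p of 1 from limma. Of all probes tested, 4.18% showed the same arrangement, with both male arrays higher and both female arrays lower, and 4.83% showed the reverse. Cspg4 was not well above background on the dim female array.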

How the results depend on the processing

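In the 54 contrasts read from the alternative fits, limma gave no call at adjusted p under 0.05 for any of the 9 genes; where probes had to be above background on all 6 arrays, 4 of the 9 were tested. Over all probes, limma called 0 for the dose over both sexes, in males, in females and for dose by sex, with 145, 74, 161 and 51 at an unadjusted p under 0.05. With slide as a block it called 1 over both sexes. In females it called 3 with the common 75th percentile, 3 with normexp and 1 with the mean signal. Leaving out one 20 mg array at a time gave 0 to 13 calls over both sexes (13 without male replicate 2), 0 to 1 in males, 0 to 5 in females and 0 to 2 for dose by sex. The smallest unadjusted p of the 9 genes was 0.00225, in females without the bright 20 mg array.

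In males, 1 of the 9 genes (Sox10) was past 2.5-fold in the authors' deposited table, and 0 to 3 were when one 20 mg array was left out (Sox10, Cspg4 and Mog without male replicate 1). In females, 0 to 3 were when one was left out, and 3 were in the authors' deposited table and with the floor set before normalization, which added Mog at -1.75 and -1.94. With the other 5 arrays normalized anew without the dim array, an alternative chosen after seeing the data, 0 were. The myelin minus precursor difference in females, 0.02, was 0.50 with the common 75th percentile, 0.36 with normexp and 0.36 with the mean signal; leaving out an array gave -0.22 to 0.26 in females and -0.16 to 0.38 in males. The common 75th percentile moved the median of all probes tested in females from -0.21 to 0.45. Of 108 recomputed differences of single genes in each sex, 7 in males and 10 in females took the other sign. In males, without replicate 2, Mog had -1.22, Pdgfra 0.49 and Mbp 0.09; without replicate 1, Olig1 had -0.15 and Cnp -0.24; Olig1 had -0.01 with the common 75th percentile, and Mbp 0.50 as the mean over its probes. In females, Cnp had -0.49 without the dim array against -3.60, Sox10 had -0.26 and Olig2 0.09 without the dim array, and Mbp took a positive sign under 6 alternatives, its mean over all probes being 0.54.

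No paired analysis was possible because the 2 mg groups have 1 array each and share only 1 replicate number with the 20 mg groups. Leaving out a 2 mg array was not run, since no 2 mg array of that sex would remain.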
